A study of Mus musculus with 10 samples.

Results

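The genes of motile cilia and of the axoneme, the microtubule shaft inside a cilium, were followed in the hippocampus of amyloid-bearing mice with and without irisin supplied from the periphery. Members were gene symbols that begin with Cfap, Dnah, Dnai, Dnaaf, Rsph, Tekt, Spag or Drc and a digit, together with Foxj1, Ccdc153, Tmem212, Ak7 and Ccdc146, kept where 5 or more of the 10 libraries reached a value of 10. The symbol rule found 88 genes, and 77 of them passed the filter on low values, among 17556 genes tested and 31510 in the deposited table. All mice were male APP/PS1 animals (34832-JAX), which carry human amyloid precursor protein and presenilin transgenes driven by a prion protein promoter, and the control mice carried them too. They received a tail vein injection at 8 months of age of an adeno-associated virus of serotype 8 that carried either FLAG-tagged irisin (AAV8-irisin, n = 5) or green fluorescent protein (AAV8-GFP, n = 5). The vector was meant to make the liver secrete irisin, and the hippocampus was taken 2 months later for bulk RNA sequencing. The comparison of AAV8-irisin with AAV8-GFP asks what circulating irisin does to the transcriptome of this tissue.

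Motile cilia beat because rows of dynein motors, held as outer and inner arms on doublet microtubules, slide neighbouring doublets against each other, while radial spokes, the nexin-dynein regulatory complex and a central apparatus control the bend. In the brain they stand on ependymal cells, which line the ventricles and move cerebrospinal fluid, and cells of the choroid plexus carry related cilia, whereas neurons and astrocytes bear a single primary cilium that does not beat. FOXJ1 is the transcription factor that drives the motile cilium program, and factors of the RFX family act with it through the X-box, a palindromic promoter element.

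The promoters of the members are shown to let a reader see what the RFX and forkhead letters look like in genes whose RNA was measured here. RefSeq promoter windows on GRCm38.p6, 250 bases before to 50 after the start of a gene, were found for 64 of the 77 members, in 71 windows. Both arms of an X-box were searched as GTTNCC and GGNAAC with 0 to 3 bases between them. A longer version of a single arm was searched as GTTGCCA, and the forkhead element as TGTTTAC, each on both strands, so that an arm or forkhead match can also read TGGCAAC or GTAAACA. A match to the longer arm can lie inside a full X-box. Stretches of 80 bases are given on the strand of the gene, 5′ to 3′, with 1 match in capitals.
Cfap298, full X-box, chr16:90934991-90935070, minus strand: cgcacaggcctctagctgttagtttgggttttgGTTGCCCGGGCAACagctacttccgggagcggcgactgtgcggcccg
Tekt1, arm, chr11:72361855-72361934, minus strand: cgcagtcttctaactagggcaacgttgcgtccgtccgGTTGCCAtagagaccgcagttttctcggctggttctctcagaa
Drc1, arm, chr5:30281343-30281422, plus strand: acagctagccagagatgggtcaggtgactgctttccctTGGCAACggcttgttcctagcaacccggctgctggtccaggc
Dnaaf2, arm, chr12:69198400-69198479, minus strand: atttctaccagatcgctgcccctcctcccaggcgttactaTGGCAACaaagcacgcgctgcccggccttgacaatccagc
Cfap161, arm, chr7:83794864-83794943, minus strand: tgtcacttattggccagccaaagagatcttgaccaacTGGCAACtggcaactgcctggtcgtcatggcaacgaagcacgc
Ak7, forkhead, chr12:105705814-105705893, plus strand: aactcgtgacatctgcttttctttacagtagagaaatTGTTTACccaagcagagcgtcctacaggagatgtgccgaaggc

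The full X-box of Cfap298 was the only match of that kind in the members' windows, 1 of 71 (1.41%), and 264 of all 32851 windows held it (0.804%). In Cfap298 the full X-box lay 188 bases before the start, and a match to the longer arm lay outside it, 61 before the start. The single arm stood in 16 of the 71 windows (22.5%), in 15 genes, against 1439 of all windows (4.38%) and 662 of the 16531 windows of genes tested (4.00%). The windows of Cfap74 overlap and share a match. The arm lay 15 bases before the start of Tekt1, 12 before that of Drc1, 10 before that of Dnaaf2 and 67 before that of Cfap161, the last with 2 further copies of the arm in lower case within the printed stretch. The forkhead letters were found in Ak7, Cfap20, Cfap43 and Dnah17, 4 of 71 windows (5.63%), against 3.65% of all windows and 2.65% of the windows of genes tested. The match in Ak7 lay 131 bases before the start. A match describes letters in a window and does not show that a factor binds there.

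The libraries held 35300000 to 36600000 normalised counts each, and an estimated 30700000 to 41500000 reads stood behind them. The table's values are normalised and their whole reads could not be recovered, so errors are given as the spread between mice. All 12 excitatory hippocampal neuron markers, 12 astrocyte markers and 10 oligodendrocyte markers looked for were above 0 in every library. Of 25 ependymal markers outside the symbol rule that passed the filter, 0 were at 0 in any library, and their summed value ran from 14100 to 15300 in AAV8-GFP and from 14220 to 15550 in AAV8-irisin. In bulk tissue, fewer cells of a type and less RNA per cell cannot be told apart.

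Most members encode proteins that build, assemble or drive the cilium. By limma, 0 of the 77 members and 0 of the 17556 genes tested (0%) had an adjusted p under 0.05 between AAV8-irisin and AAV8-GFP, with 0.942 as the lowest adjusted p of any member. At an unadjusted p under 0.05, 5 members had a higher mean in AAV8-irisin, which is 6.49% of the members beside 2.28% of all genes tested. These were Ccdc146, Cfap97, Dnah12, Dnah11 and Cfap100. A lower mean at that level was found for 2 members, Cfap157 and Dnah17, 2.60% beside 2.21% of all genes. The number of higher members at that level was 10 without AAV8-GFP mouse 4. The number of lower members was 0 without AAV8-GFP mouse 3, AAV8-GFP mouse 4 or AAV8-irisin mouse 3. The share of all genes at that level is not given for fits that leave out a mouse. Whether calls over all genes rose or fell with them is therefore not shown.

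The log2(value + 1) mean was higher in AAV8-irisin for 56 members (72.7%), beside 50.5% of all genes, and lower for 21. The median log2 difference of the members was 0.079, beside 0.0010 over all genes, and single members ranged from −0.69 to 0.84. Without AAV8-GFP mouse 3, 48 members had a higher mean and the median was 0.056. The number was 59 without AAV8-GFP mouse 1 or AAV8-irisin mouse 2. All 5 AAV8-irisin mice lay above all 5 AAV8-GFP mice in 1 member, Ccdc146 (1.3%, beside 0.382% of all genes), and below them in 0 members (beside 0.422%). These shares are descriptions of a list whose genes are measured in the same mice, and the list was not tested as a set.

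**Figure D1:**
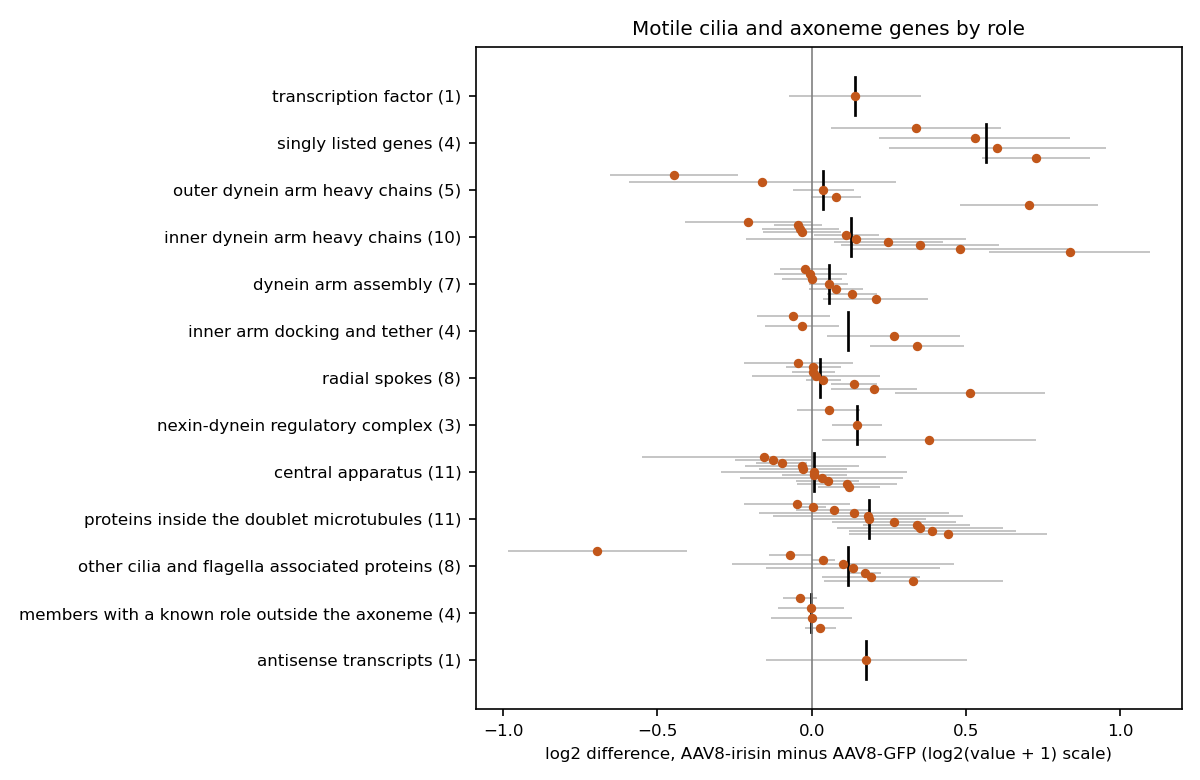
Log2 difference of each of the 77 members on the log2(value + 1) scale (positive values mean more in AAV8-irisin), grouped by role with the number of members in parentheses. Points are genes, grey lines are ± 1 standard error of the limma fit and black bars are the median of a role; 10 of 11 proteins inside the doublet microtubules lie right of 0 (9 with quantile normalisation), while the central apparatus has 6 of 11 there.

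Foxj1 (chr11:116330704-116335399, minus strand, in mm10 coordinates of GENCODE M21, as for all genes named) encodes the master regulator of the program. Its normalised counts were 298, 180.1, 122, 282 and 256 in AAV8-GFP mice 1 to 5 and 253, 186, 298, 268 and 205 in AAV8-irisin mice 1 to 5. The groups overlapped almost completely, and the lowest value belonged to AAV8-GFP mouse 3. Means were 228 ± 74.5 and 242 ± 45.8 (SD, n = 5 each), with a log2 difference of 0.14 and a standard error of 0.21. Leaving out each mouse in turn moved the log2 difference between −0.064, without AAV8-GFP mouse 3, and 0.26, without AAV8-GFP mouse 1.

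Ccdc146 (chr5:21292961-21424677, minus strand) encodes a coiled-coil protein of centrioles and axonemes. Its values were 22.4, 19.2, 16.4, 26.2 and 18.3 in AAV8-GFP and 33.0, 34.5, 29.2, 38.2 and 36.6 in AAV8-irisin. Every AAV8-irisin mouse was above every AAV8-GFP mouse. Means were 20.5 ± 3.86 and 34.3 ± 3.48, with a log2 difference of 0.73, its 95% interval running from 0.35 to 1.10 and a standard error of 0.18. The limma p of 0.000999 was not past the threshold after adjustment over all genes (adjusted p = 0.942), and without AAV8-GFP mouse 3 the log2 difference was 0.66.

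Ccdc153, Tmem212 and Ak7 are widely used marker genes of multiciliated ependymal cells, and Ak7 encodes an adenylate kinase of cilia. Ccdc153 (chr9:44240676-44247306, plus strand) had 96.4, 76.4, 25.9, 120.1 and 75.2 normalised counts in the AAV8-GFP mice and 103, 78.0, 129, 102 and 106 in the AAV8-irisin mice. Tmem212 (chr3:27866066-27896368, minus strand) had 30.7, 32.9, 9.71, 52.5 and 46.1 against 38.1, 42.2, 66.1, 51.7 and 38.2. Ak7 (chr12:105705976-105782447, plus strand) had 76.0, 61.5, 33.0, 144 and 81.6 against 85.7, 81.3, 106, 93.6 and 86.7. In all of them AAV8-GFP mouse 3 was the lowest of the 10 libraries. AAV8-GFP mice 2 and 5 for Ccdc153, and mice 1 and 2 for Tmem212 and Ak7, were also below all AAV8-irisin mice. The rest of the AAV8-GFP mice were not. Log2 differences were 0.53 for Ccdc153, 0.60 for Tmem212 and 0.34 for Ak7, with standard errors of 0.31, 0.35 and 0.28. Without AAV8-GFP mouse 3 they were 0.18, 0.22 and 0.067. Without AAV8-GFP mouse 4, the highest of the 10 libraries for Ak7, the log2 difference of Ak7 was 0.59.

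**Figure D2:**
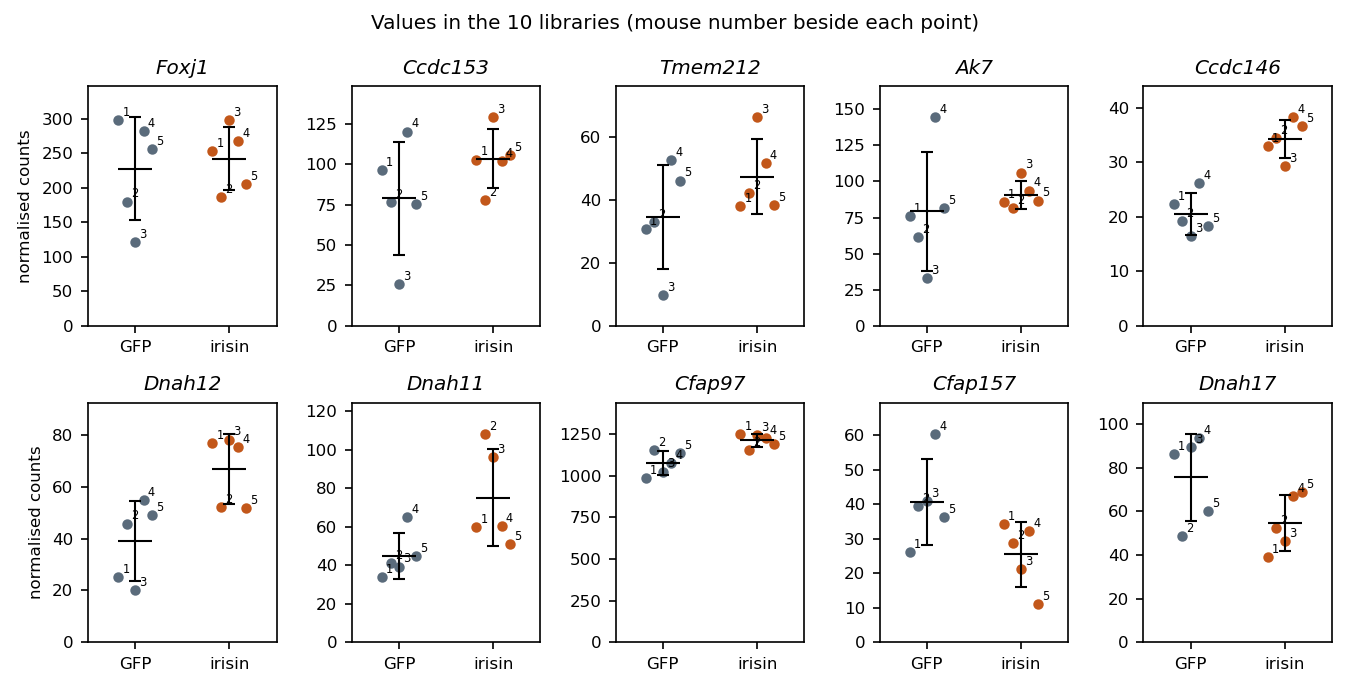
Normalised counts of the 5 singly listed genes and of 5 further members in each mouse, with the mouse number beside each point and the mean ± SD (n = 5) as bars on axes that start at 0. Ccdc146 has no overlap between the groups (16.4 to 26.2 against 29.2 to 38.2), and AAV8-GFP mouse 3 is the lowest library for Foxj1, Ccdc153, Tmem212 and Ak7.

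The heavy chains of the dynein arms, the motors themselves, did not share a direction. AAV8-irisin had the higher mean for 3 of the 5 outer arm heavy chains and the lower mean for 2, and their median log2 difference was 0.038. Dnah11 (chr12:117877982-118199043, minus strand) had 34.0, 41.2, 39.4, 65.3 and 44.9 normalised counts in the AAV8-GFP mice and 60.1, 108, 96.3, 60.6 and 51.1 in the AAV8-irisin mice. AAV8-irisin mice 2 and 3 stood above all AAV8-GFP mice, and the other 3 were within their range. The log2 difference was 0.70 with a standard error of 0.22. Exons of Dnah11 overlap exons of Cdca7l on the opposite strand, whose means were 56.1 ± 15.7 and 71.0 ± 26.0, and reads of the pair cannot be told apart without strand.

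Dnah17 (chr11:118021723-118130634, minus strand), an outer arm chain known best from sperm tails, had 86.4, 48.7, 89.4, 93.5 and 60.3 normalised counts in the AAV8-GFP mice and 39.2, 52.5, 46.6, 66.9 and 68.9 in the AAV8-irisin mice. The groups overlapped, with 2 AAV8-irisin mice below all AAV8-GFP mice. Its log2 difference was −0.45 with a standard error of 0.21. It overlaps Pgs1 on the opposite strand, a gene at 2378 ± 55.6 and 2255 ± 80.8 normalised counts. Dnah9, the outer arm chain of highest value per length, had 945 ± 154 and 963 ± 90.9, and Dnah8, the chain of lowest value per length, had 33.2 ± 17.5 and 26.6 ± 10.5.

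Of the 10 inner arm heavy chains 6 had a higher and 4 a lower mean, and their median log2 difference was 0.13. Dnah12 (chr14:26693274-26891703, plus strand) had the largest log2 difference of any member, 0.84 with a standard error of 0.26. Its normalised counts were 25.1, 45.8, 20.2, 54.9 and 48.9 in AAV8-GFP and 76.7, 52.1, 78.1, 75.2 and 51.9 in AAV8-irisin. Mice 1, 3 and 4 of AAV8-irisin were above every AAV8-GFP mouse and mice 2 and 5 were not. Without AAV8-GFP mouse 3 the log2 difference was 0.63.
Dnah1 had 343 ± 25.7 and 332 ± 27.3 normalised counts. Dnah10 had 86.4 ± 32.6 and 72.0 ± 11.5, with a log2 difference of −0.21 that came to −0.013 without AAV8-GFP mouse 4, which held 142, and to −0.12 without AAV8-irisin mouse 2.

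Dynein arms are put together in the cytoplasm by assembly factors before they enter the cilium. Of 7 members of this kind 5 were higher and 2 lower in the mean of AAV8-irisin, and their median log2 difference was 0.055. Cfap298, whose promoter holds the full X-box printed above, had 799 ± 99.3 and 842 ± 82.5 normalised counts. Dnaaf2 had 303 ± 25.9 and 298 ± 21.7, and Dnaaf5 had 298 ± 19.8 and 301 ± 48.4. These differences were smaller than the spread between mice of either group.

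Of the 4 tether and docking members of the inner arms, 2 were higher and 2 were lower. Cfap100 (chr6:90403479-90428797, minus strand), which anchors an inner arm dynein, had 198, 176, 249.7, 357 and 240.4 normalised counts in the AAV8-GFP mice and 336, 252, 312, 291 and 316 in the AAV8-irisin mice. AAV8-GFP mouse 4 was the highest of the 10, so that no AAV8-irisin mouse lay above all controls, although 4 AAV8-GFP mice were below all AAV8-irisin mice. The log2 difference was 0.34 with a standard error of 0.15, and the unadjusted limma p was 0.0429 (adjusted p = 0.942).

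Radial spokes carry signals from the central apparatus to the dyneins. Of the 8 spoke members 7 had a higher and 1 a lower mean (6 and 2 with quantile normalisation), yet the median log2 difference was 0.026. Cfap206, needed for a spoke base, had 33.5, 22.2, 15.0, 19.0 and 24.8 normalised counts in the AAV8-GFP mice and 41.7, 25.9, 22.8, 30.8 and 43.8 in the AAV8-irisin mice. AAV8-irisin mice 1 and 5 were above all controls, and the log2 difference was 0.51 with a standard error of 0.24. The spoke genes of highest level per length did not show such a gap: Rsph3b had 831 ± 46.4 and 854 ± 57.3, and Rsph9 had 363 ± 20.3 and 365 ± 26.1. Reads of the near-identical copies Rsph3a and Rsph3b, and likewise of Dnah7a, Dnah7b and Dnah7c, could have been divided among them by the counting, so their values are uncertain.

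All 3 members of the nexin-dynein regulatory complex, the link between neighbouring doublets, had a higher mean, with a median log2 difference of 0.15. Drc3 had 299.9, 313, 234, 305 and 275 normalised counts in the AAV8-GFP mice and 309, 318, 315, 326 and 304 in the AAV8-irisin mice. The AAV8-irisin mice lay close together at 314 ± 8.47, and the lowest control was again AAV8-GFP mouse 3. Without that mouse the log2 difference of 0.15 was 0.077. Drc1, whose promoter holds an X-box arm, had 291 ± 33.0 and 303 ± 43.1.

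The central apparatus, a separate pair of microtubules with its projections, was split evenly, with 6 of 11 members higher, 5 lower and a median log2 difference of 0.0074. Cfap74 had 521 ± 46.3 normalised counts in the AAV8-GFP mice and 488 ± 51.9 in the AAV8-irisin mice. Spag6 had 139 ± 22.0 and 127 ± 15.0, a log2 difference of −0.13 that came to −0.047 without AAV8-GFP mouse 3 and to −0.19 without AAV8-GFP mouse 5. Spag17, a central pair gene named after its values were seen, had 97.6 in AAV8-irisin mouse 2 and 15.1 to 34.3 in the other 4 AAV8-irisin mice.

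Proteins inside the doublet microtubules stiffen the shaft, tektins among them. Of these 11 members 10 had a higher and 1 a lower mean in AAV8-irisin (9 and 2 with quantile normalisation). Their median log2 difference was 0.19, and 0 had an unadjusted limma p under 0.05. Tekt1 had 36.7, 36.1, 31.1, 58.8 and 34.4 normalised counts in the AAV8-GFP mice and 47.7, 38.4, 46.8, 50.9 and 37.3 in the AAV8-irisin mice. AAV8-GFP mouse 4 was the highest of the 10 and the other 4 controls were below all AAV8-irisin mice. The log2 difference of 0.19 was 0.34 without AAV8-GFP mouse 4 and 0.11 without AAV8-GFP mouse 3. Tekt5 had 239 ± 42.4 and 249 ± 23.6, and without AAV8-GFP mouse 3 its log2 difference of 0.072 was −0.044.

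Among 8 other cilia and flagella associated proteins 6 were higher and 2 lower. Cfap97 (chr8:46151771-46195590, plus strand), also known as hemingway, had 985, 1154, 1025, 1076 and 1138 normalised counts in the AAV8-GFP mice and 1249.5, 1154, 1241, 1224 and 1191 in the AAV8-irisin mice. Mice 1, 3, 4 and 5 of AAV8-irisin lay above all controls. Means were 1076 ± 71.9 and 1212 ± 39.5, with a log2 difference of 0.17 and a standard error of 0.051. Snx25, which overlaps it on the opposite strand, had 1654 ± 143 and 1732 ± 36.2.

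Cfap157 (chr2:32777381-32784428, minus strand), a basal body protein, was the member of lowest log2 difference, −0.69 with a standard error of 0.29. Its normalised counts were 26.2, 39.4, 40.9, 60.4 and 36.3 in AAV8-GFP and 34.4, 28.7, 21.3, 32.3 and 11.2 in AAV8-irisin. The groups overlapped, with AAV8-irisin mice 3 and 5 below all controls. Without AAV8-irisin mouse 5 the log2 difference was −0.44. Cfap36, a partner of the small GTPase ARL3, had 2269 ± 49.9 and 2331 ± 79.7, and Cfap410 had 1092 ± 58.6 and 1045 ± 117.

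The symbol rule also takes in Spag4, Spag5, Spag7 and Spag9, which are best known for work outside the axoneme. Spag9 encodes JIP4, a scaffold of kinesin and dynein transport on lysosomes, and it had 12074 ± 951 and 12285 ± 489.8 normalised counts. Spag7 had 1069 ± 68.2 and 1041 ± 53.0. Of the 4 genes 2 had a higher and 2 a lower mean, and the median log2 difference was −0.0006. Spag17os, an antisense transcript at the Spag17 locus, was the remaining member, at 10.5 ± 6.22 and 10.9 ± 2.05.

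The 11 symbols that did not pass the filter were Cfap221, Cfap53, Cfap73, Cfap97d1, Dnaaf1, Dnah2os, Rsph14, Rsph6a, Spag11a, Spag11b and Tekt3. Just outside it, Dnaaf1 had a mean of 11.4 over the 10 libraries, Cfap53 of 10.6 and Cfap221 of 10.4. Just inside it, Spag17os had a mean of 10.7 and Cfap77 of 12.1. The sperm and epididymis genes Spag11a and Spag11b were listed at 0 in every library.

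Levels per kilobase of exons, the scale on which genes may be set beside each other, spread widely over the 74 members with an annotated length. Spag9 had 1090 normalised counts per kilobase, Cfap36 had 838, Spag7 had 713 and Cfap298 had 516. Foxj1 had 89.5 (rank 13), Dnah9 had 59.8 (rank 19), Tmem212 had 57.0 and Ccdc153 had 44.8. Ccdc146 had 6.27 (rank 59), and Dnah8 was lowest with 1.12.

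The members spread widely between mice of the same group. The median SD within groups on the log2(value + 1) scale was 0.239 for the members and 0.122 for all genes tested, with Dnah8 the most variable and Cfap36 the least. The split that follows was chosen after the values were seen. Among the 36 members with a mean under 100, 29 had a higher mean in AAV8-irisin (80.6%, beside 50.9% of the 4528 genes tested in that range), with a median log2 difference of 0.20 and a median within-group SD of 0.487, beside 0.336. Among the 41 members with a mean of at least 100, 27 had a higher mean (65.9%, beside 50.4%), with a median log2 difference of 0.028 and a median within-group SD of 0.167, beside 0.097. Without AAV8-GFP mouse 3 the low-level members numbered 26 with a higher mean and their median was 0.11. Their median was 0.27 without AAV8-GFP mouse 4 and 0.29 without AAV8-GFP mouse 1 or AAV8-irisin mouse 2.

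**Figure D3:**
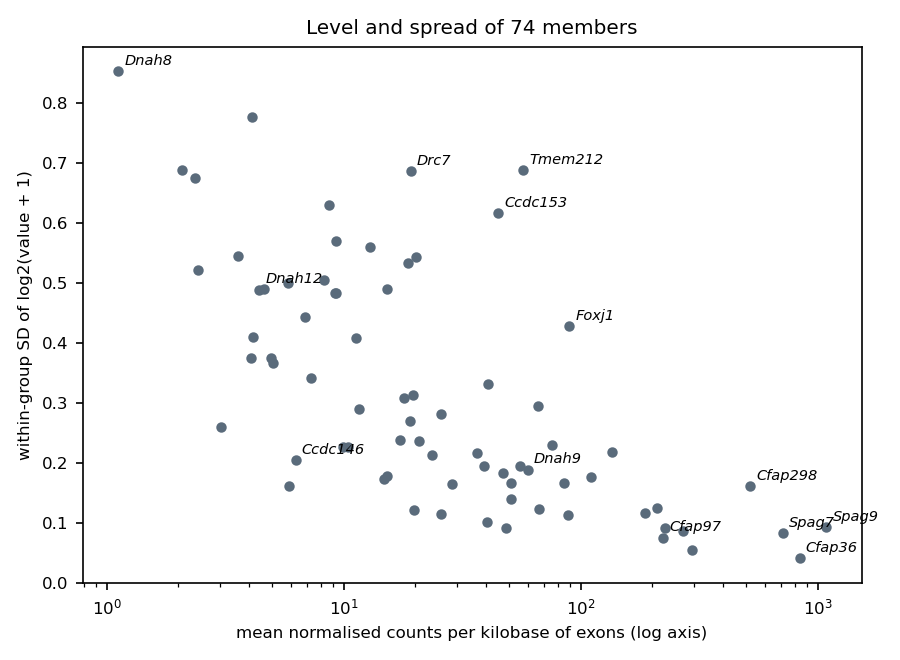
Mean normalised counts per kilobase of exons (log axis) against the SD within groups of log2(value + 1) for the 74 members with an annotated exon length, one point per gene. Spag9, Cfap36 and Spag7 are high and steady; Tmem212, Ccdc153 and Drc7 have an SD above 0.6 at middle levels, and Dnah8 is lowest in level and highest in SD.

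AAV8-GFP mouse 3 stood apart from the other controls in these genes. It had the lowest of the 10 values in 27 of the 77 members (35.1%), beside 11.6% of all genes tested. Among the 36 members with a mean under 100 it was lowest in 19. The share over all genes of that level is not given, so the 19 cannot be set beside the 11.6%. The values of those 36 genes summed to 1412, 1258, 1003, 1714 and 1335 in AAV8-GFP mice 1 to 5 and to 1492, 1392, 1650, 1668 and 1377 in AAV8-irisin mice 1 to 5. AAV8-GFP mouse 3 was below all other mice and AAV8-GFP mouse 4 above them. AAV8-GFP mice 2 and 5 were also below all AAV8-irisin mice, and AAV8-GFP mouse 1 was within their range. Over all genes tested AAV8-GFP mouse 1 was the most extreme library, lowest in 20.8% and highest in 19.7%. It also had the lowest sum over all 77 members, 29740, beside 30490 in AAV8-GFP mouse 3. Spag9 alone made up 10451 of the 29740. Cfap161, Cfap52 and Tekt2, named after their values were seen, had 11.9, 14.5 and 9.11 in AAV8-GFP mouse 3. They had at least 22.0, 27.7 and 19.2 in every other mouse.

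The same mouse had the lowest sum of 10 oligodendrocyte markers, 106300 beside 118900 to 147600 in the others, and of 8 interneuron markers. It had the highest sums of 12 astrocyte markers (216100), 12 excitatory neuron markers (297900), 10 microglia markers (24070) and 10 endothelial and mural markers (14020). Its 25 ependymal markers outside the rule summed to 15270, within the range of the others. That list shares Aqp4 and S100b with the astrocyte markers, so its sum does not measure ependymal cells alone. AAV8-GFP mouse 1 had the lowest sums of astrocyte markers (173800) and of excitatory neuron markers (237700). AAV8-irisin mouse 3 held the highest value in 15 members (19.5%, beside 8.41% of all genes) and AAV8-irisin mouse 4 in 12 (15.6%, beside 9.93%). The part of tissue composition in the members' differences was not tested.

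**Figure D4:**
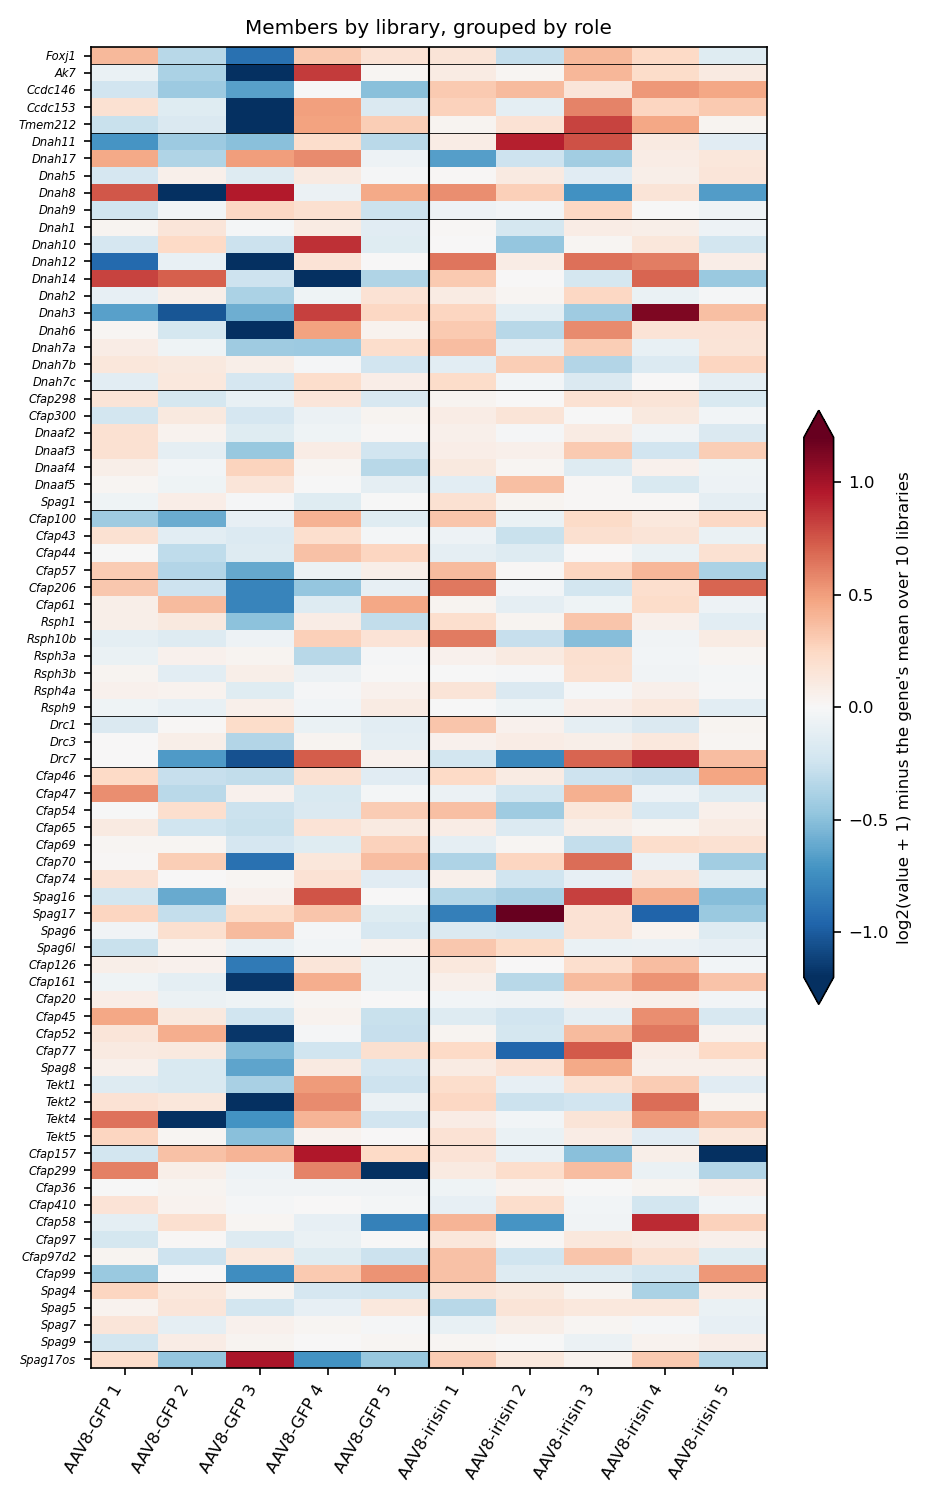
Each of the 77 members (rows, grouped by role) in each of the 10 libraries (columns, AAV8-GFP left of the black line), as log2(value + 1) minus the gene's mean over the libraries, with blue below and red above that mean. The column of AAV8-GFP mouse 3 is blue for most low-level members, and it is the lowest library in 27 of the 77.

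Across the 10 mice 57 of the other 76 members correlated positively with Foxj1 (75.0%, beside 49.6% of all genes), with a median Pearson r of 0.36. Pearson r was above 0.7 for 15 members (19.7%, beside 1.86% of all genes). With p-values adjusted over all 17555 genes, 0 members passed the threshold by Pearson r or by Spearman rho, and the smallest adjusted permutation p of a member was 0.389 for r and 0.290 for rho. For Dnah6 r was 0.90 (permutation p = 0.00133, n = 10) and rho was 0.75 (permutation p = 0.0173). For Ccdc153 r was 0.87 (permutation p = 0.00317) and rho was 0.66 (permutation p = 0.043). For Cfap43 r was 0.80 (permutation p = 0.00419) and rho was 0.93 (permutation p = 0.00033). Dnah6 and Cfap43 were named after their values were seen.

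Without AAV8-GFP mice 3 and 2, the libraries farthest from the median of Foxj1, r was 0.67 for Dnah6, 0.52 for Ccdc153, 0.37 for Ak7 and 0.93 for Cfap43. The count of members with r above 0.7 was then 3 (3.95%, beside 2.91% of all genes), and the median r was 0.22 in place of 0.36. Leaving out the mice at the end of the range of Foxj1 also narrows that range, so a smaller r does not by itself show that a relation rests on them. On values centred within each group the count was 15 (19.7%, beside 2.42%).

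**Figure D5:**
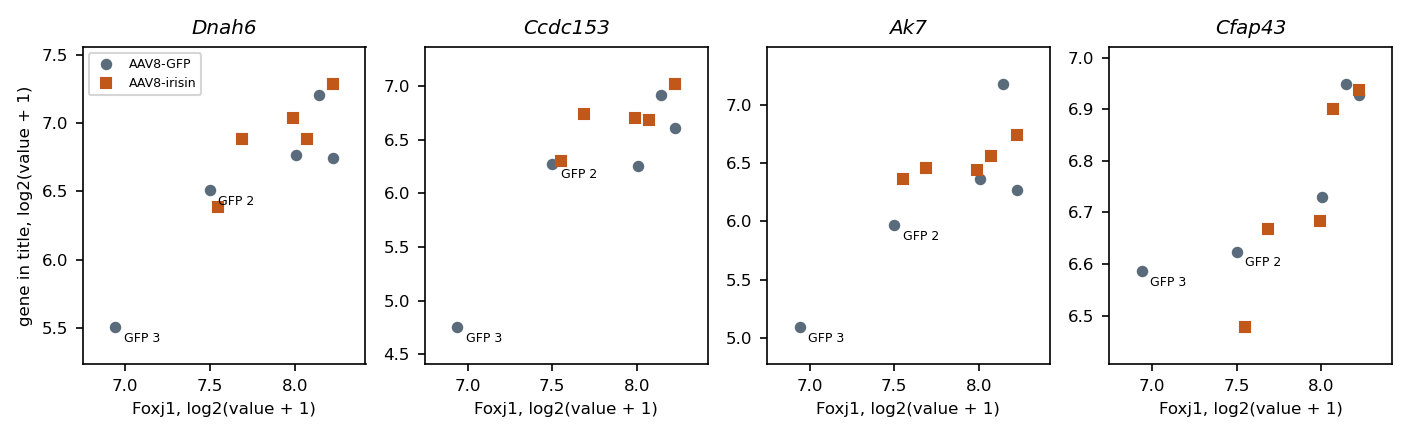
Dnah6, Ccdc153, Ak7 and Cfap43 against Foxj1, both as log2(value + 1), with a point for each of the 10 mice (circles AAV8-GFP, squares AAV8-irisin). AAV8-GFP mouse 3 sits alone at the low end; without it and AAV8-GFP mouse 2, Pearson r is 0.67, 0.52, 0.37 and 0.93 in that order.

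The choroid plexus lies beside the hippocampus, and its marker Ttr, which encodes transthyretin, differed between libraries by over an order of magnitude. Ttr had 27.6, 10.1, 14.1, 48.3 and 47.4 normalised counts in the AAV8-GFP mice and 86.2, 12.3, 162, 1528 and 56.6 in the AAV8-irisin mice. The value of AAV8-irisin mouse 4 was far above all others. Of the 18 choroid plexus markers tested 16 had a higher mean and 2 a lower mean in AAV8-irisin, and their median log2 difference was 0.20, beside 0.079 for the members. At an unadjusted p under 0.05, 4 of the 18 were higher (beside 2.28% of all genes) and 0 lower. The list held 24 markers, and Kcnj13, Slc4a5, Otx2, Kcne2, Steap1 and Wfdc2 did not pass the filter. None of the 18 that passed was at 0 in any library. Their sum ran from 6769 to 7756 in AAV8-GFP and from 7262 to 10550 in AAV8-irisin. The highest marker in the sum had a mean of 4080 over the libraries, so the sum does not follow Ttr alone. Correlation with Ttr was positive for 62 of the 77 members (80.5%, beside 50.2% of all genes), with a median r of 0.24, and r was above 0.7 for 1 member, Drc7 (1.3%, beside 0.974%). By p-values adjusted over all genes, 0 members passed, and the smallest adjusted permutation p was 1. Without AAV8-irisin mouse 4 and AAV8-GFP mouse 2 the count above 0.7 was 8 (10.4%, beside 2.44%). The part of choroid plexus tissue in the members' differences was not tested.

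Other genes of the same pathway, outside the symbol rule, gave 0 that differed by limma at the adjusted threshold. Of 14 transcription and cell cycle factors of multiciliated cells 6 had a higher and 8 a lower mean, and the median log2 difference was −0.028. Rfx3, an RFX factor of high level, had 3311 ± 363 and 3320 ± 220.4 normalised counts. Of 54 further axonemal and motile cilia genes 39 were higher and 15 lower, with a median of 0.061. Gas8, which encodes a subunit of the nexin-dynein regulatory complex, had 833 and 839 as its means. At an unadjusted p under 0.05, 1 of the 14 factors and 1 of the 54 axonemal genes had a higher mean, beside 2.28% of all genes tested, and 0 had a lower one, beside 2.21%. The groups did not overlap in 1 factor (beside 0.382% of all genes higher in this way), Deup1, which encodes a protein of the deuterosome, where multiciliated cells make centrioles. Deup1 was named after its values were seen and had 16.6 ± 1.24 and 22.2 ± 4.4 normalised counts, with a log2 difference of 0.38 and a standard error of 0.19.

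Of 31 genes of intraflagellar transport, the traffic that builds all cilia, 20 were higher and 11 lower, with a median log2 difference of 0.027, and 1 was higher at an unadjusted p under 0.05, beside 2.28% of all genes. Of 20 genes of the BBSome and of the neuronal primary cilium 10 were higher and 10 lower, with a median of 0.0005, and 0 reached that level. Of the 25 ependymal markers outside the rule 19 were higher and 6 lower, with a median of 0.087. Among other cell types the median log2 difference was 0.11 for 10 oligodendrocyte markers, all with a higher mean, −0.10 for 10 microglia markers, all with a lower mean, −0.030 for astrocyte, −0.017 for excitatory neuron, 0.006 for interneuron and −0.048 for endothelial and mural markers. Several ependymal and axonemal genes stand on both of those lists, and Aqp4 and S100b stand on both the ependymal and the astrocyte list.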

How the data were processed

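Polyadenylated RNA of 10 hippocampi was sequenced. The authors deposited one non-negative signal value for each gene and library, called DESeq2 normalised counts in the name of the table. The submitters' processing notes name bcl2fastq 2.17, DESeq2 and mm10. Aligner, counter, annotation and strand setting are not given in the sources used here. Without strand, reads of genes that overlap on opposite strands cannot be told apart, which touches 30 of the 77 members. With the most frequent low value taken as 1 read, 63.3% to 78.2% of low values were whole within 0.1 reads, so whole reads were not recovered and no count test was run.

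Samples were grouped by treatment. Their titles number the mice, and p-values therefore reflect how far mice differ. Tested genes had 5 or more libraries at a value of 10 or above. They were fitted as log2(value + 1) with limma 3.58.1 in R 4.3.3 (group as factor, mean-dependent prior variance), two-sided, with Benjamini-Hochberg adjustment over all 17556 genes and a threshold of 0.05. The pseudocount of 1 understates changes of low genes. Correlations with Foxj1 and Ttr used 100000 permutations, two-sided, adjusted over all genes. The smallest p that so many permutations can give is too large for 1 gene alone to pass that adjustment. The fit and the correlations were also run on simulated data. How often small changes were recovered there is not given here, so 0 genes past the threshold does not show that no gene changed. Gene positions come from GENCODE M21, where 97.5% of symbols were found. Dates stood in place of 26 symbols. Cfap410, Cfap47 and Dnaaf4 had no exon length.

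The members and all gene lists were chosen with earlier results of these data known. Named genes are the 5 singly listed genes, the 6 members of smallest p in each direction, the 2 of highest level per kilobase in each symbol family, and members whose groups do not overlap.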

Additional observations from a re-analysis of the deposited data

Results flagged for a closer look

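Among 62 groups of 5 mice, from 31 genes, 4 held a mouse far from the other 4 of its group, and chance flags about 1 in 20 groups. Dnah9 was high in AAV8-irisin mouse 3 (1120 normalised counts), and so was Rsph3b in the same mouse (955). Tekt1 was high in AAV8-GFP mouse 4 (58.8). Ttr was high in AAV8-irisin mouse 4 (1530).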

How the results depend on the processing

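Of the 77 members 36 had a mean under 100, where the median SD within groups was 0.487, against 0.167 for the others. Of the 30 named members, 20 kept the sign of their difference in all 19 alternatives, and 0 members passed the adjusted threshold in any of them (smallest adjusted p by limma 0.794).

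Without a filter, 1 gene differed in place of 0. With a mean of at least 50, 33 of 50 members tested had a higher mean, beside 50.3% of all genes, in place of 56 of 77. Among those with a mean under 100, it was 6 of 9 in place of 29 of 36. Their median log2 difference was 0.34 in place of 0.20. The count of lower members at an unadjusted p under 0.05, which was 2, became 0 with a mean of at least 50. It became 1 with no filter, with quantile normalisation, with a constant prior variance and with array quality weights. The share of all genes at that level is not given for these settings, so these counts cannot be set beside it. Members with a Pearson r above 0.7 to Foxj1 numbered 3 without the 2 farthest libraries, in place of 15; with Ttr they numbered 8 without the 2 farthest and 3 centred by group, in place of 1. The log2 difference of Dnaaf5 was −0.0108 with quantile normalisation, and with array quality weights those of Dnah9 and Rsph9 were −0.0020 and −0.0076. The cause was not tested.

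At an unadjusted p under 0.05, leaving out each mouse in turn gave 4 to 10 higher and 0 to 3 lower members. The share of all genes at that level is not given for these fits, so the range of counts cannot be set beside it. With each mouse left out, 48 to 59 members had a higher mean, beside 49.8% to 50.8% of all genes. Log2 differences then ran from −0.0602 to 0.0217 for Dnaaf2, −0.0906 to 0.0468 for Dnaaf5, −0.0854 to 0.002 for Dnah1, −0.0228 to 0.1045 for Dnah9, −0.0214 to 0.1181 for Drc1, −0.064 to 0.2571 for Foxj1, −0.0031 to 0.0612 for Rsph3b, −0.026 to 0.0383 for Rsph9, −0.0234 to 0.0538 for Spag9 and −0.0435 to 0.1441 for Tekt5.

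With the mouse number as a replicate block, 8 members were higher and 1 lower at an unadjusted p under 0.05. The share of all genes at that level is not given for this fit, so the 8 and 1 cannot be set beside it. A higher mean was found for 56 members, beside 50.5% of all genes. The numbers are not said to pair mice, and same-numbered mice did not deviate together (correlations of −0.089 to 0.030), nor did any mouse correlate best with its own number. The planned count tests were not run because whole reads were not recovered.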

Other observations

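A predicted gene that lies over a member was the only gene past the threshold when no filter on low values was applied. Gm49383 (ENSMUSG00000113149.1, chr12:69182834-69197104, minus strand, annotated as protein coding) has exons that overlap those of Dnaaf2, Rpl36al and Gm49384 on its own strand and of Mgat2 on the opposite strand. Its normalised counts were 6.92, 9.03, 2.66, 13.9 and 11.6 in AAV8-GFP mice 1 to 5, and it was listed at 0 in all 5 AAV8-irisin mice. The adjusted p by limma without a filter was 0.0108, and the gene was below the filter used elsewhere. Gm49384 beside it was listed at 0 in 7 of the 10 libraries. Dnaaf2 itself had 303 ± 25.9 and 298 ± 21.7 normalised counts (SD, n = 5 each). The gene was named after its values were seen.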
